A study of Macaca fascicularis with 64 samples.

Results

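The cells described here were pancreatic β-cells of cynomolgus monkeys (Macaca fascicularis), split within each animal by how much mRNA they held for a pair of endoplasmic reticulum (ER) chaperones. β-cells were retained where over 800 macaque genes and over 10000 unique molecular identifiers (UMIs, 1 for each captured mRNA molecule) were counted, where INS was the highest of the hormone genes GCG, INS, SST and PPY, and where INS reached at least 20000 CPM (counts scaled to a common total of macaque UMIs) and at least 2 times the second hormone. In every animal with 20 or more such cells, the β-cells were ranked by the summed CPM of HSPA5 and HSP90B1 and divided into 3 groups of nearly equal size, with the remainder in the middle. The group with the highest sums (chaperone-high) was compared with the one with the lowest (chaperone-low), so these cells were selected on the values of that pair of genes. Of 6141 barcodes, 5908 cells were retained and 1086 met the β-cell gate. The 13 animals with enough β-cells held 1045 of them, of which 344 were chaperone-high, 344 chaperone-low and 357 in the middle group, so that 688 cells were compared. The animals had between 23 and 189 β-cells (median 69), and between 7 (young male 3) and 63 (old female 4) in each of the compared groups.

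Islets were sampled from 16 non-diabetic animals, for which the labels list no treatment, and of which 8 were young and 8 were old, and each age group had 4 females and 4 males. The 13 compared here were 2 young females, 4 young males, 4 old females and 3 old males. Islets were hand-picked from the tail of the pancreas and dissociated, stained dead cells and debris were removed by flow sorting, and single cells were drawn by mouth pipette, so the β-cells had come through dissociation. Each animal was collected on its own day, so that day and animal cannot be told apart, and the comparison stayed within animals and days. The animals were the replicates throughout. The labels give the animal and the library of a cell, and the young and old groups come from the series description.

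Insulin is made in the ER, where the signal peptide of its precursor is removed, its disulfide bonds are formed and its folding is watched over by chaperones. HSPA5 (BiP) is the Hsp70 chaperone of the ER lumen and also holds the stress sensors of the unfolded protein response (UPR) in check, and HSP90B1 (GRP94) is the Hsp90 of the same compartment. When unfolded protein builds up, the sensors EIF2AK3 (PERK), ERN1 (IRE1) and ATF6 slow translation and raise transcription of chaperones, of disulfide isomerases and of the machinery that returns misfolded proteins to the cytosol for degradation. β-cells are known for the heavy folding load that insulin places on this compartment, and both chaperones are read here as mRNA only.

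The values that chose the cells are a description and were not tested. The mean summed level of chaperone-low cells was between 340.0 CPM (young male 2) and 2578 CPM (old male 2), with a median of 850.1 CPM over animals. The mean of chaperone-high cells was between 1177 and 8005 CPM in the same pair of animals, with a median of 2986 CPM. The ratio of the means was between 2.15 (young female 1) and 6.36 (young male 3), with a median of 2.86. At the lower border, the highest chaperone-low cell had a median over animals of 1275 CPM and the lowest cell of the middle group one of 1297 CPM. At the upper border, the highest cell of the middle group stood at a median of 2004 CPM and the lowest chaperone-high cell at 2018 CPM. The groups are therefore ranges of a continuous level with no gap between them. Animals differed as much as the groups did, since the chaperone-high mean of young male 2 lay below the chaperone-low mean of old male 1 (1585 CPM). HSPA5 gave between 25.0% and 40.7% of the summed level (median 37.3%), so HSP90B1 gave the larger part of it. How far each gene set the ranking was not tested. Over the cells of each animal, the Spearman correlation of the pair of genes was between -0.15 and 0.50 (median 0.22), as a description over cells that share a library, a depth and a total.

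**Figure D1:**
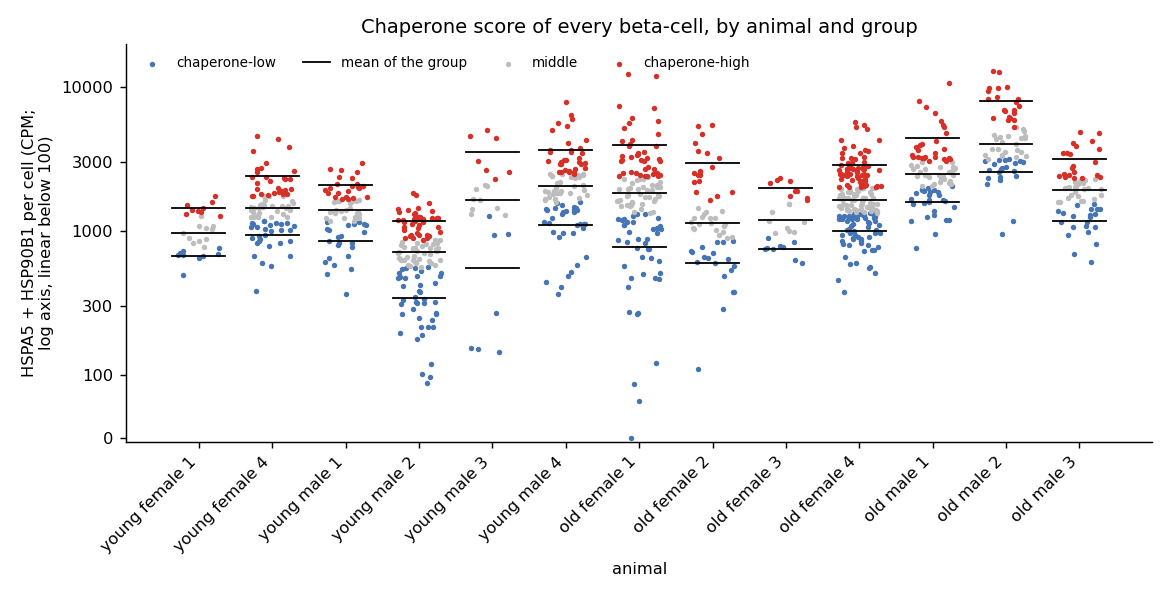
Summed CPM of HSPA5 and HSP90B1 in each of the 1045 β-cells (y axis, logarithmic above 100 and linear below) in the 13 animals (x axis), coloured by group, with a black line at the mean of each group. The groups adjoin within every animal, the chaperone-high mean was between 2.15 and 6.36 times the chaperone-low mean, and old male 2 held the highest levels.

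For each animal, the UMI counts of its chaperone-high and of its chaperone-low cells were added up, with HSPA5, HSP90B1 and the spike-in RNAs left out, and each sum held between 286595 and 6819475 UMIs. Of 8655 genes tested with edgeR's quasi-likelihood test with the animal as a block, 5 rose in chaperone-high cells at a Benjamini-Hochberg adjusted p under 0.05 (0.0578% of genes tested) and none fell (0%, with 141 lower genes at an unadjusted p under 0.05 and 1 called lower by DESeq2, SLC25A1, a mitochondrial citrate carrier chosen for mention after its values were seen). All 5 genes that rose encode ER proteins: CRELD2, SDF2L1, MANF, PDIA4 and CALR. At an unadjusted p under 0.05, 236 genes were higher (2.73%) and 141 lower (1.63%). The median log2 fold change of all genes tested was 0.01, and 51.2% of the genes had a positive value. Normalised CPM below are CPM of a sum after the trimmed-mean scaling of edgeR, and each log2 fold change is chaperone-high minus chaperone-low.

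CRELD2, a disulfide isomerase-like ER protein that is induced by ER stress, had the largest difference of the 5. It stood at a lowest value of 0, a median of 3.22 and a highest of 68.3 normalised CPM over the chaperone-low sums of the 13 animals, and at 0, 41.0 and 336 over their chaperone-high sums. The log2 fold change was 2.89 (SE 0.29, adjusted p = 1.51e-05, edgeR), and CRELD2 was higher in chaperone-high cells in 12 of 13 animals. The ranges over animals overlapped, because the animals themselves differed widely: in old male 2 the chaperone-low cells already reached 68.3 normalised CPM. The middle group, which entered no test, lay between the others in 10 animals. Young male 3 had no CRELD2 UMI in the 7 cells of either compared group, and at its 357486 and 286595 UMIs a count of 0 allows up to 8.39 and 10.5 CPM, so no difference could be seen there. Young male 2 had none in its 41 chaperone-low cells, which allows up to 1.70 CPM, and 2.5 normalised CPM in its chaperone-high cells.

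SDF2L1, a partner of the HSPA5 chaperone cycle that works with the J-domain protein DNAJB11, was higher in chaperone-high cells of 13 of 13 animals. Its lowest, median and highest values were 21.0, 65.5 and 340.2 normalised CPM in chaperone-low cells and 37.3, 209 and 1318 in chaperone-high cells. The log2 fold change was 1.40 (SE 0.17, adjusted p = 9.78e-05). The middle group was between the others in 8 animals, and in old male 2 the level went from 340.2 through 574 to 1318 normalised CPM.

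MANF, a small ER-resident and secreted protein that protects cells under ER stress, was likewise higher in 13 of 13 animals. Values over the chaperone-low sums were 62.3, 92.7 and 368 normalised CPM (lowest, median, highest) and over the chaperone-high sums 88.3, 225 and 817. The log2 fold change was 1.08 (SE 0.14, adjusted p = 0.000491), with the middle group in between in 10 animals. The smallest step within an animal was in young male 2, from 71.4 to 88.3 normalised CPM.

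PDIA4 (ERp72), a protein disulfide isomerase, stood at 8.64, 63.4 and 178 normalised CPM in chaperone-low cells and at 18.2, 116 and 999 in chaperone-high cells. It was higher in 13 of 13 animals with a log2 fold change of 1.10 (SE 0.18, adjusted p = 0.00773). CALR (calreticulin), a calcium-binding lectin chaperone of newly made glycoproteins, had the most UMIs of the 5 and moved least. Its values were 114, 239 and 623 normalised CPM in chaperone-low cells and 250.0, 367 and 901 in chaperone-high cells. The log2 fold change of CALR was 0.56 (SE 0.10, adjusted p = 0.0370), again higher in 13 of 13 animals. Its call was the least firm, since CALR passed the threshold in 10 of 30 alternative settings. Levels are compared here within a gene, not between genes of different length.

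**Figure D2:**
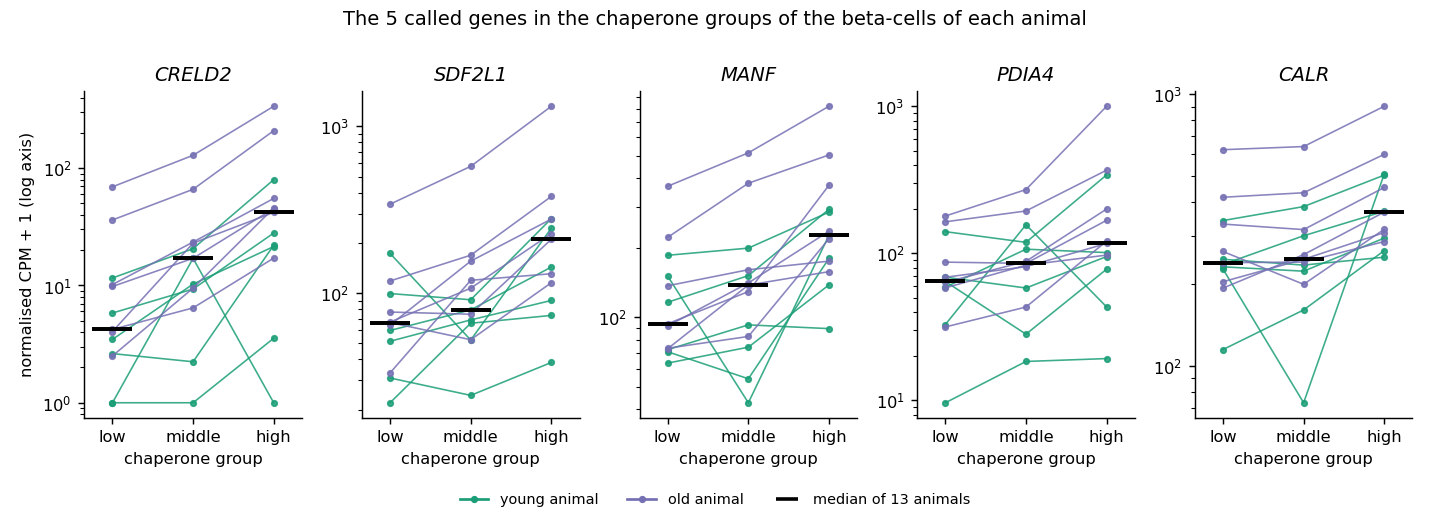
Normalised CPM + 1 (y axis, logarithmic) of CRELD2, SDF2L1, MANF, PDIA4 and CALR in the chaperone-low, middle and chaperone-high cells (x axis), with 1 line per animal coloured by age group and a black bar at the median of 13 animals. The lines of SDF2L1, MANF, PDIA4 and CALR end higher than they begin in 13 of 13 animals, those of CRELD2 in 12.

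Young male 3 weighed on the number of calls. It had the fewest cells, with 7 in each group. Of its chaperone-low cells, 4 of 7 (57.1%) came from 1 library that gave none of its chaperone-high cells. Its median of 2232 genes per cell was the lowest, beside 3797 in young male 2, the next lowest. Spike-in RNAs made a median of 9.34% of the UMIs of its chaperone-low cells, beside 5.96% in young male 4, the next highest. The part of each of these traits was not tested. In the fit of all 13 animals, young male 3 was the sample whose omission changed the outcome most. Without it, 20 genes rose and 1 fell, of 8884 tested, and CRELD2, SDF2L1, MANF, PDIA4 and CALR were all among the 20. Of the 20, 12 belonged to the ER lists described next. In that fit PPIB, a peptidyl-prolyl isomerase, had a log2 fold change of 0.47 (SE 0.06, adjusted p = 0.000239). DNAJB11, the co-chaperone named above, reached 0.76 (SE 0.17, adjusted p = 0.0497). The gene that fell was ABCC8, the sulfonylurea receptor of the ATP-sensitive potassium channel, by 0.32 on the log2 scale (SE 0.06, adjusted p = 0.0197). DESeq2, on all 13 animals, called 20 genes higher and 1 lower, and 12 genes were common to its 21 calls and the 21 calls of edgeR without young male 3. DESeq2 gave no adjusted p for 5873 genes, CRELD2 among them.

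Genes of the ER were then counted by role, in 6 lists that hold neither HSPA5 nor HSP90B1 and that together had 175 genes tested of 187 in the files. Of these 175, 45 (25.7%) were higher at an unadjusted p under 0.05, beside 2.73% of all genes tested, and 0 were lower (1 lower by the same measure with DESeq2). Positive values were found for 144 of 175 genes, and the median log2 fold change was 0.20 beside 0.01 for all genes. Without young male 3, 70 of 175 (40.0%) were higher, beside 4.02% of all genes. Without the animal as a block, 21 of 175 were higher (12%), and with INS at 5 times the second hormone (4 animals) it was 9 of 152 (5.92%). Over the 30 alternatives it lay between 5.92% and 46.3%. Under the 30 alternatives the median of the 6 lists stayed positive, between 0.15 and 0.29.

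Chaperones and co-chaperones of the ER lumen stood highest: 27 of 32 genes were tested, 4 rose, 12 were higher and 0 lower at an unadjusted p under 0.05, and the median was 0.38. DNAJB9, an ER stress-induced J-domain co-chaperone of HSPA5, was at a median of 52.0 normalised CPM in chaperone-low cells and 94.5 in chaperone-high cells, with a log2 fold change of 0.75 (SE 0.18, adjusted p = 0.326) and higher values in 12 of 13 animals. DNAJB11 went from a median of 62.6 to 104 normalised CPM, with a value of 0.74 (SE 0.18, adjusted p = 0.326). Both genes missed the threshold in the fit of all 13 animals, and both passed it by DESeq2 (adjusted p = 0.00264 for DNAJB9 and 0.00468 for DNAJB11) and by edgeR without young male 3 (adjusted p = 0.0497 for each). PPIB had a log2 fold change of 0.39 (SE 0.10, adjusted p = 0.426; by DESeq2 adjusted p = 0.0233). CANX (calnexin), the membrane-bound relative of CALR, was higher in 13 of 13 animals with a value of 0.38 (SE 0.12) and an adjusted p of 0.861. HYOU1, the large Hsp70-like nucleotide exchange factor for HSPA5, gave 0.61 (SE 0.28), and DNAJC3 (P58IPK) 0.43 (SE 0.20). The lowest value of the list was that of POGLUT1, a glycosyltransferase, with a log2 fold change of -0.50 (SE 0.41).

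Among ER oxidoreductases, which make and reshuffle disulfide bonds, 20 of 22 were tested, PDIA4 rose, 4 were higher and 0 lower at an unadjusted p under 0.05, and the median was 0.17. PDIA3 (ERp57), the isomerase that works with CALR and CANX, moved from a median of 297 to 473 normalised CPM with a log2 fold change of 0.51 (SE 0.11, adjusted p = 0.137). P4HB, the classical disulfide isomerase, had a smaller difference of 0.21 (SE 0.11). ERO1B, the oxidase that is abundant in islet cells and re-oxidises these isomerases, had one of 0.07 (SE 0.06), at medians of 1419 and 1555 normalised CPM. PDIA3 was called by DESeq2 (adjusted p = 0.00461) and by edgeR without young male 3 (adjusted p = 0.0306).

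Genes of ER-associated degradation, the route back to the cytosol, were tested for 28 of 29, with 5 higher and 0 lower at an unadjusted p under 0.05 and a median of 0.20. SEL1L, the adaptor of the ubiquitin ligase SYVN1, gave a log2 fold change of 0.57 (SE 0.14, adjusted p = 0.345). SYVN1 itself gave 0.77 (SE 0.43) at medians of 11.9 and 17.8 normalised CPM. HERPUD1, an ER stress-induced membrane component of the complex, was at 0.46 (SE 0.13) and DERL2 at 0.62 (SE 0.17). The lectin ERLEC1 was at 0.48 (SE 0.14), with the middle group in between in 10 animals. None of these passed the adjusted threshold with edgeR on all 13 animals, while DESeq2 called SEL1L and DERL2, edgeR without young male 3 called SEL1L (adjusted p = 0.0160) and HERPUD1 (adjusted p = 0.0165), and edgeR without the filter on low counts called ERLEC1.

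Translocon and signal peptide genes, which bring new chains into the ER, were tested for 21 of 23, with 8 higher and 0 lower at an unadjusted p under 0.05 and a median of 0.20. SEC61G, a subunit of the channel, had a log2 fold change of 0.39 (SE 0.11), whereas SEC61A1, its pore subunit, had one of 0.20 (SE 0.16). SPCS2, of the signal peptidase that also cuts preproinsulin, was at 0.32 (SE 0.09), SSR2 of the translocon-associated complex at 0.66 (SE 0.20), and TRAM1 at 0.50 (SE 0.16). The genes of N-glycosylation were tested for 32 of 32, with 6 higher and 0 lower and a median of 0.17. Of the oligosaccharyltransferase subunits, OSTC had a value of 0.40 (SE 0.12) and DDOST one of 0.27 (SE 0.10). Genes of ER-to-Golgi transport were tested for 47 of 49, with 10 higher and 0 lower, 40 positive values and a median of 0.25. TMED5 was at 0.79 (SE 0.22), the cargo receptor SURF4, at medians of 546 and 666 normalised CPM, at 0.26 (SE 0.08) and the lectin LMAN1 at 0.32 (SE 0.14). No gene of these 3 lists passed the adjusted threshold with edgeR on all 13 animals, while DESeq2 called TMED5 and OSTC.

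**Figure D3:**
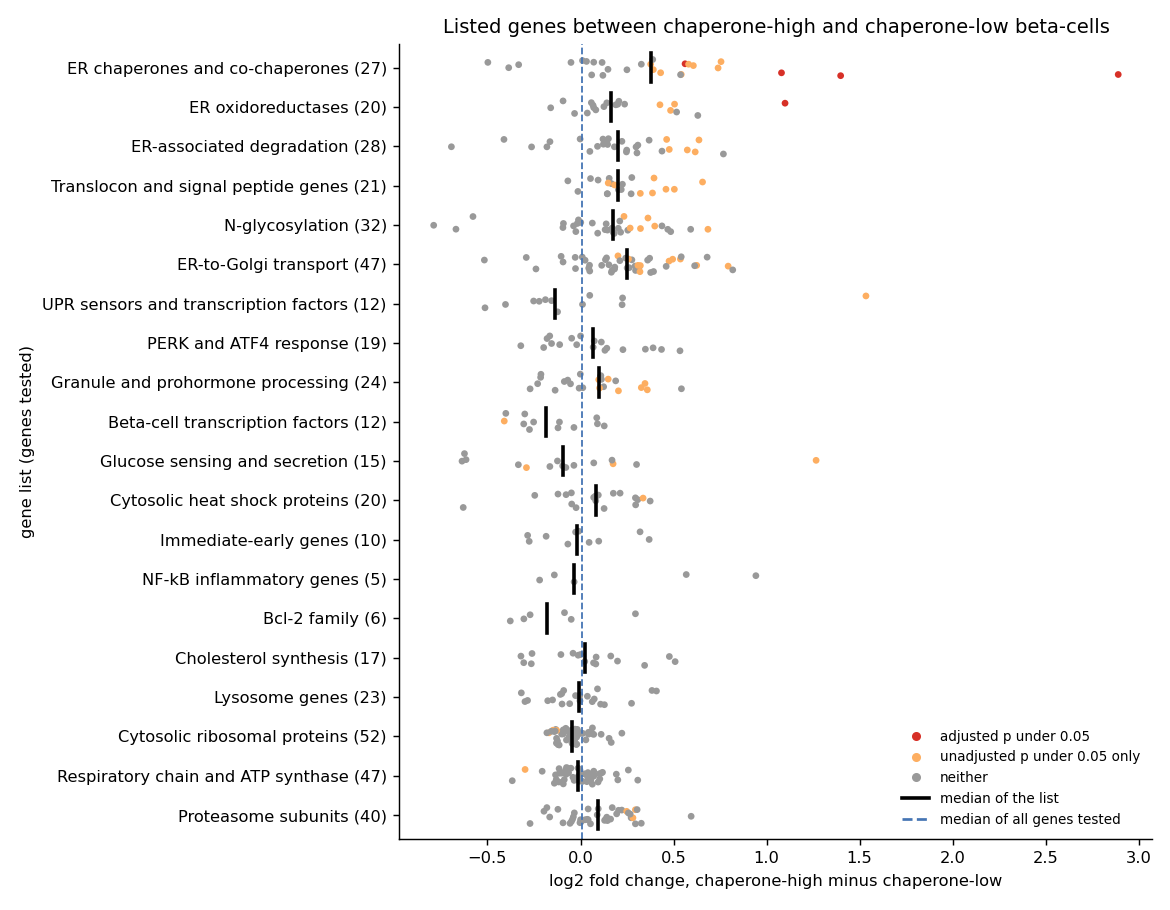
Log2 fold change, chaperone-high minus chaperone-low (x axis) of each gene tested in 20 lists (y axis, number of genes tested in parentheses), coloured by the test, with black bars at the medians of the lists and a dashed line at the median of all genes tested. The medians of the 6 ER lists lie between 0.17 and 0.38, and those of the other lists between -0.19 and 0.10.

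The UPR sensors and transcription factors, which control many of these genes, gave fewer such values. Of 12 tested of 13, 1 was higher and 0 lower at an unadjusted p under 0.05, 5 values were positive, and the median was -0.14. The gene at an unadjusted p under 0.05 was EIF2AK3, at medians of 4.32 and 12.7 normalised CPM, with a log2 fold change of 1.53 (SE 0.49, adjusted p = 0.861) and higher values in 12 of 13 animals. ERN1 had a value of -0.51 (SE 0.46) and ATF6 one of -0.22 (SE 0.45), both with wide errors at medians between 16.5 and 56.4 normalised CPM. These measures are of mRNA, and the sensors are switched by their protein state. XBP1, the transcription factor spliced by ERN1, was not analysed here.

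Of the PERK and ATF4 response, 19 of 33 genes were tested, with a median of 0.07. At an unadjusted p under 0.05, 0 were higher and 0 lower by edgeR, with the same counts by DESeq2. The shares of all genes tested by edgeR were 2.73% and 1.63%. ATF4, the transcription factor translated under stress, was at medians of 151 and 144 normalised CPM, with a log2 fold change of 0.07 (SE 0.15). DDIT3 (CHOP), the pro-apoptotic factor downstream of it, was at -0.17 (SE 0.29), and DDIT4 at -0.32 (SE 0.37). TRIB3 was too low to be tested. With these errors, a difference of DDIT3 or DDIT4 in either direction could have gone undetected.

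INS was required by the gate, so β-cells of both groups carried it by selection. INS stood at a lowest value of 51543, a median of 68155 and a highest of 101445 normalised CPM in chaperone-low cells and at 38688, 59363 and 121461 in chaperone-high cells. Its log2 fold change was -0.14 (SE 0.07, p = 0.0803 before adjustment), with higher values in chaperone-high cells in 4 of 13 animals. The sign of INS turned under 2 alternatives that adjust for depth. IAPP (islet amyloid polypeptide), which is stored and released with insulin, went the other way, from a median of 2226 to 2970 normalised CPM. Its log2 fold change was 0.33 (SE 0.08, adjusted p = 0.286), and it passed the threshold without young male 3 at 0.35 (SE 0.07, adjusted p = 0.0289). Of the other β-cell markers, G6PC2 (at most 50.9 CPM, in chaperone-high cells of 1 animal) and ADCYAP1 (at most 0.74 CPM) were too low to be tested.

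Genes of granules and prohormone processing were tested for 24 of 28, with 14 positive values and a median of 0.10. At an unadjusted p under 0.05, 7 were higher (29.2%) and 0 lower. The share of higher genes was 25.7% in the 6 ER lists together and 2.73% in all genes tested. In the fit of all 13 animals none passed the adjusted threshold, whereas IAPP passed it without young male 3, and IAPP and CHGB did so without the filter on low counts. CHGB (chromogranin B), a granule matrix protein, had a log2 fold change of 0.35 (SE 0.09, adjusted p = 0.516) at medians of 1717 and 2344 normalised CPM. The prohormone convertase PCSK1 was at 0.36 (SE 0.15) and the granin SCG2 at 0.20 (SE 0.08). Of the β-cell transcription factors, 12 of 16 were tested, 0 were higher and 1 lower at an unadjusted p under 0.05, 9 values were negative, and the median was -0.19. ISL1 had a log2 fold change of -0.41 (SE 0.16), NKX2-2 one of -0.40 (SE 0.20) and MAFA, the insulin gene activator, one of -0.31 (SE 0.16, higher in chaperone-high cells in 4 of 13 animals). None passed the adjusted threshold, so these values are differences in size only.

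For glucose sensing and secretion, 15 of 24 genes were tested, with 2 higher and 1 lower at an unadjusted p under 0.05 and a median of -0.10. The lower gene was ABCC8, at medians of 1409 and 1159 normalised CPM, with a log2 fold change of -0.29 (SE 0.07, adjusted p = 0.286) and lower values in 11 of 13 animals. HADH, a mitochondrial dehydrogenase that restrains insulin release, was at 0.17 (SE 0.08), and the glucose transporter SLC2A1 at 1.27 (SE 0.57) from medians of 4.06 and 9.76 normalised CPM. The granule and the glucose sensing genes each held values of either sign, and in the fit of all 13 animals no member passed the adjusted threshold, although IAPP and ABCC8 did so without young male 3.

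Chaperones outside the ER gave smaller values. Of the cytosolic and mitochondrial heat shock proteins, 20 of 21 were tested, 1 was higher and 0 lower at an unadjusted p under 0.05, and the median was 0.08. That gene was HSPD1, the mitochondrial chaperonin, with a log2 fold change of 0.34 (SE 0.14). HSPA8, the constitutive cytosolic Hsp70, had one of 0.13 (SE 0.06) at medians of 1055 and 1186 normalised CPM. The proteasome subunits, tested for 40 of 42, had 3 higher and 0 lower and a median of 0.09, with PSMB5, a catalytic subunit, at 0.28 (SE 0.12).

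The lists of general stress and housekeeping functions are set beside all genes tested. Of those, 2.73% were higher and 1.63% lower at an unadjusted p under 0.05. At these shares, most of the lists are too short for a count of 0 to differ from all genes. Immediate-early genes, which respond to dissociation, were tested for 10 of 20, with 0 higher and 0 lower at an unadjusted p under 0.05 and a median of -0.02. NF-kB inflammatory genes (5 of 22 tested), the Bcl-2 family (6 of 11), cholesterol synthesis (17 of 21) and lysosome genes (23 of 24) also had 0 higher and 0 lower by that measure, with medians of -0.03, -0.18, 0.02 and -0.01. Cytosolic ribosomal proteins were tested for 52 of 54, with 0 higher and 3 lower (5.77%, beside 1.63% of all genes). They had 40 negative values and a median of -0.04. The lower ones included RPL9 with a log2 fold change of -0.15 (SE 0.05) and RPL41 with one of -0.13 (SE 0.05). In the respiratory chain and ATP synthase, 47 of 51 were tested, with 0 higher and 1 lower and a median of -0.01. The lower gene was COX7A1, a muscle-type subunit of cytochrome c oxidase, with a log2 fold change of -0.30 (SE 0.09, adjusted p = 0.584) and lower values in 12 of 13 animals.

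Depth moved with the ranking to some degree. The mean number of UMIs per cell was between 43008 and 105675 in chaperone-low cells (median 72929) and between 40942 and 151839 in chaperone-high cells (median 93858). The mean log2 ratio was 0.22 ± 0.41 (SD, n = 13 animals), positive in 9 of 13 (exact sign-flip permutation test over animals, two-sided, p = 0.0737, adjusted p = 0.0885 over the 6 exact tests made here). It passed 0.05 when the groups were made within each library (0.30, exact permutation p = 0.0210), without young male 3 (0.27, exact permutation p = 0.0352) and without old female 1 (0.27, exact permutation p = 0.0234). With each cell thinned to 10000 UMIs, the genes detected per cell were between 1306 and 2691 in chaperone-low cells and between 1451 and 2801 in chaperone-high cells. The mean difference was 61.8 ± 99.8 genes (SD, n = 13), positive in 11 of 13 animals (exact permutation p = 0.0483, adjusted p = 0.0885). That value missed 0.05 under 4 of the processing alternatives and in 10 of the 13 tests that left out 1 animal, all but those without young female 1, old female 2 or old male 1. Among the processing alternatives was INS at 5 times the second hormone, which left 4 animals, where the exact test cannot pass 0.05. Without thinning, the medians over animals of the median genes per cell were 4707 and 4890.

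The contrast was repeated with other treatments of depth. With the thinned counts, 3407 genes could be tested, and SDF2L1 (1.49, adjusted p = 0.000288) and MANF (1.22, adjusted p = 0.00602) rose by edgeR. With depth as a covariate, CRELD2, SDF2L1, MANF and CALR rose. With the score ranked at equal depth, an alternative chosen after the data were seen that left a mean log2 depth ratio of -0.10, SDF2L1, MANF and CRELD2 rose. PDIA4 passed under none of these 3, with log2 fold changes of 1.03 (adjusted p = 0.0619) for thinned counts, 0.99 (adjusted p = 0.190) with the covariate and 1.13 (adjusted p = 0.451) at equal depth. CRELD2 was too low to be tested after thinning. With the groups made within each library, where the depth ratio was larger, CRELD2, SDF2L1, MANF and PDIA4 rose. The part of depth in the remaining differences was not tested further.

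The sets of called genes differed with the gene that ranked the cells. Ranked by HSPA5 alone, 6 genes rose, among them CRELD2, SDF2L1, MANF and PDIA4, and also PPIB (5 of the 6 in the ER lists). Ranked by HSP90B1 alone, edgeR called 0 of 8694 genes, with 194 higher and 125 lower at an unadjusted p under 0.05. Under the second ranking, the log2 fold change was 2.01 for CRELD2 (adjusted p = 0.166), 0.85 for SDF2L1, 0.80 for MANF, 0.93 for PDIA4 and 0.28 for CALR. The difference between the rankings was not tested.

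Each ranking gene was also measured in cells chosen by the other. In cells ranked by HSPA5 alone, HSP90B1 was at 443.9, 959 and 2538 CPM (lowest, median and highest animal) in the low group and at 547, 1204 and 4077 CPM in the high group. The mean log2 ratio was 0.40 ± 0.27 (SD, n = 13), positive in 12 of 13 animals (exact sign-flip permutation test, two-sided, p = 0.000488, adjusted p = 0.00293, with 0.000244 the smallest p that 13 animals allow). The exception was young female 1, with 641 and 632 CPM. With the groups made within each library the ratio was 0.34 (exact permutation p = 0.0559). In cells ranked by HSP90B1 alone, HSPA5 was at 169, 502 and 1435 CPM in the low group and at 217, 808 and 2957 CPM in the high group. The mean log2 ratio was 0.54 ± 0.88 (SD, n = 13), positive in 11 of 13 animals (exact permutation p = 0.0510, adjusted p = 0.0885). Young male 3 went strongly the other way (-1.87), and without it the ratio was 0.74 (exact permutation p = 0.00146). Without young female 1, the other animal with a negative value, the ratio was 0.61 (exact permutation p = 0.0371). Leaving out an animal with a negative value raises the mean ratio by construction. Without any other animal p stayed above 0.05, and without old male 2 the ratio was 0.45 (exact permutation p = 0.0986).

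Between animals, the level of the pair was set beside age, which the ranking within animals did not use. The mean of log2(CPM/10 + 1) over all β-cells of an animal was, for HSPA5, 3.84, 5.20 and 5.79 in young animals (lowest, median, highest) and 4.96, 5.33 and 7.02 in old animals. The group means were 5.13 ± 0.71 (SD, n = 6) and 5.75 ± 0.77 (SD, n = 7), a difference of 0.62 (exact permutation test, two-sided, p = 0.175). Without young male 2 it was 0.36 (exact permutation p = 0.364), and without old male 2 it was 0.41 (exact permutation p = 0.320). HSP90B1 was at 5.42, 6.10 and 7.01 in young and at 6.07, 6.61 and 8.11 in old animals. Its group means were 6.14 ± 0.57 (SD, n = 6) and 6.87 ± 0.68 (SD, n = 7), a difference of 0.73 (exact permutation p = 0.0629, adjusted p = 0.0885). Old male 2 was highest and young male 2 lowest in both genes, and the groups overlapped in both. Without young male 2 the HSP90B1 difference was 0.58 (exact permutation p = 0.135), and without old male 2 it was 0.52 (exact permutation p = 0.110). Without young male 4 it was 0.90 (exact permutation p = 0.0253), and without old female 2 it was 0.86 (exact permutation p = 0.0281). Young male 4 was the highest young and old female 2 the lowest old animal, so leaving out either raises the difference by construction. Without any other animal the exact permutation p was at least 0.0541 (without old female 3). Sexes were unequally spread over the age groups, with 2 females among the 6 young and 4 among the 7 old animals.

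**Figure D4:**
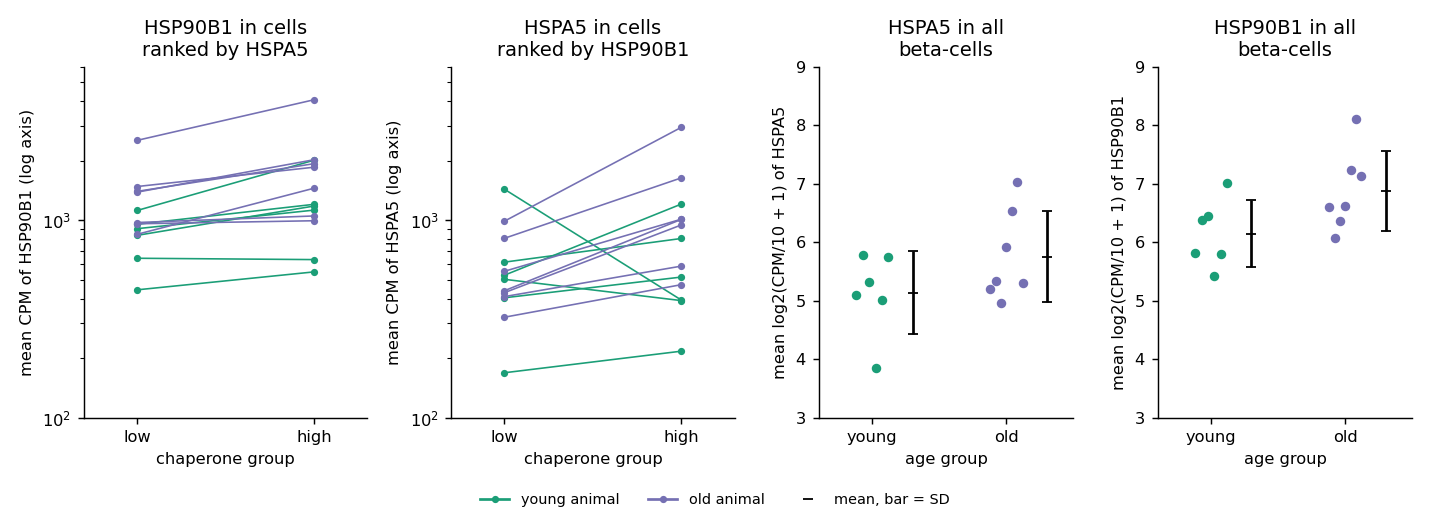
Left panels, mean CPM (y axis, logarithmic) of HSP90B1 in β-cells ranked by HSPA5 and of HSPA5 in β-cells ranked by HSP90B1, in the low and high group (x axis) of each of 13 animals. Right panels, the mean log2(CPM/10 + 1) of each gene over all β-cells of an animal (points), by age group, with mean and SD at the side. HSP90B1 is higher in the high group in 12 of 13 animals, HSPA5 in 11, and young and old animals overlap.

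The contrast between chaperone-high and chaperone-low cells was compared between age groups and sexes by an interaction term. For age, 0 of 8655 genes were called by edgeR (0%), with 222 at an unadjusted p under 0.05, and DESeq2 called 0, with 477. For sex, edgeR called 0 (0%), with 203 at an unadjusted p under 0.05, and DESeq2 called 0, with 452. Of the 5 genes that rose, SDF2L1 had a mean log2 ratio within animals, on normalised CPM + 1, of 1.02 ± 0.57 (SD) in 6 young animals and 1.68 ± 0.45 in 7 old ones, and the fitted difference was 0.64 (SE 0.31). PDIA4 had 0.70 ± 0.39 and 1.38 ± 0.66 on the same scale, with a fitted difference of 0.63 (SE 0.34). CALR had 0.66 ± 0.46 and 0.51 ± 0.23, with one of -0.12 (SE 0.21). MANF had 0.89 ± 0.44 and 1.25 ± 0.50, with one of 0.36 (SE 0.28). CRELD2 had 2.10 ± 1.11 and 2.72 ± 0.78, whereas its fitted difference was -0.14 (SE 0.53), so for this gene the scales differed in sign. None of these differences passed the adjusted threshold. Each of the 5 genes was higher in chaperone-high cells in all 7 old animals, and in all 6 young animals except for CRELD2, which was so in 5.

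Markers of other cells were summed over each list and compared between the chaperone groups, since the cells were picked singly and gated on hormones alone. The 12 α-cell markers, led by TTR (a mean of 36143 normalised CPM in chaperone-low cells) and GCG (21159), summed to 34791 to 80960 CPM in chaperone-low cells (median 54823) and to 40951 to 76093 in chaperone-high cells (median 50010), and were higher in chaperone-high cells in 3 of 13 animals. GCG mRNA was present in both groups of every animal, and its part in the results was not tested. δ-cell markers had medians of 379 CPM in chaperone-low and 378.5 in chaperone-high cells (ranges 76.6 to 1583 and 67.7 to 1691), and PP-cell markers 289 and 301 CPM (28.0 to 3915 and 3.50 to 4259). Acinar markers reached at most 7.88 and 4.92 CPM, as the sum of the 6 listed genes in the files, and REG1A was at 0. Ductal markers had medians of 78.7 and 83.0 CPM (19.6 to 134 and 50.9 to 273), with CFTR and SOX9 at 0. The medians were 9.93 and 6.56 CPM for stellate (0.57 to 85.4 and 0.43 to 68.6), 2.51 and 4.63 for endothelial (0 to 29.1 and 0 to 34.5) and 15.6 and 10.7 for immune markers (4.01 to 124 and 1.64 to 58.8). By edgeR on all 13 animals no marker of another cell type was called, and none of the 14 that could be tested had an unadjusted p under 0.05. With limma voom and sample weights, an alternative chosen after the data were seen, GCG and TTR were called lower in chaperone-high cells.

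Other hormones in the β-cells limited a stricter gate. Requiring INS at 5 times the second hormone left 4 animals with 48 cells in each group in all, and edgeR called 0 genes there. Of 5820 genes tested, 48 were higher and 51 lower at an unadjusted p under 0.05. With all 4 hormones left out of the totals, 4 genes rose: CRELD2, SDF2L1, MANF and PDIA4. The same 4 rose once the deepest cells were left out (UMIs above percentile 95). The 96 barcode sequences recurred in 63 to 64 of the 64 libraries, and 0 cell names were shared between libraries. Of the 52 libraries of the 13 animals, 48 gave cells to both compared groups.

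α-cells of the same animals, gated with GCG in place of INS and split by the same pair of genes, showed where the β-cell contrast had a counterpart. They gave 1120 cells in each compared group, of 4401 α-cells in all. Of 10888 genes tested, 10 rose (0.0918%) and 3 fell (0.0276%). The 3 that fell were the α-cell markers GCG (-0.27, SE 0.03, adjusted p = 0.000233) and TTR (-0.27, SE 0.03, adjusted p = 3.54e-05) and a gene listed as ENSMFAG00000036388 (-0.13), which is named after its value was seen. TM4SF4, of the same list of α-cell markers, rose (0.18, SE 0.04, adjusted p = 0.0424), so the called markers moved in both directions. CALR rose in α-cells too (0.35, SE 0.06, adjusted p = 0.0105), as did SDF2L1 (0.58, SE 0.11, adjusted p = 0.0424). PDIA3 rose in α-cells (0.36, SE 0.05, adjusted p = 0.000600). CHGB (0.30, SE 0.05, adjusted p = 0.00980) and SCG2 (0.32, SE 0.04, adjusted p = 0.000711) rose there as well. CRELD2 had a log2 fold change of 0.64 (SE 0.40) in α-cells, PDIA4 one of 0.47 (SE 0.14) and MANF one of 0.39 (SE 0.17), none past the adjusted threshold. The median of the ER chaperone list was 0.21 in α-cells and 0.38 in β-cells, over 27 genes tested in both, and that of ER-to-Golgi transport was 0.08 and 0.25 over 47.

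The difference between the cell types was tested by an interaction term across 11292 genes, of which edgeR called 0 (0%), with 443 at an unadjusted p under 0.05. DESeq2 called 5, of which CRELD2, EIF2AK3, SDF2L1 and SUV39H1 had the larger value in β-cells and CDC14A in α-cells; SUV39H1, a histone methyltransferase, and CDC14A, a phosphatase, were too low to be tested in β-cells alone. By edgeR, CRELD2 differed by 2.26 on the log2 scale (SE 0.46, adjusted p = 0.137). EIF2AK3 differed by 2.04 (SE 0.53, adjusted p = 0.999), with -0.52 (SE 0.26) in α-cells. SDF2L1 differed by 0.82 (SE 0.20, adjusted p = 0.787), MANF by 0.68 (SE 0.23), PDIA4 by 0.63 (SE 0.22) and CALR by 0.20 (SE 0.12). A larger value in β-cells was thus called by 1 of the tools for 2 of the 5 genes that rose in β-cells and by neither tool for the others. How far the summed level of HSPA5 and HSP90B1 separated the α-cell groups is not given here, and its part in these differences was not tested.

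**Figure D5:**
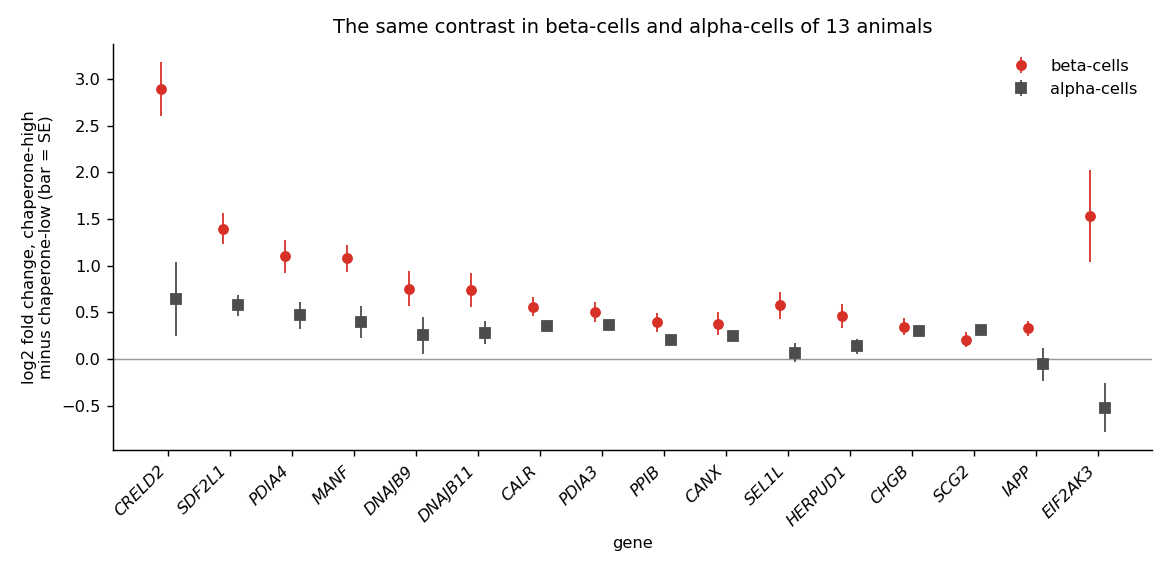
Log2 fold change, chaperone-high minus chaperone-low (y axis, bars are SE) of 16 genes named in the text (x axis), in β-cells (circles) and in α-cells (squares) of the same 13 animals. CRELD2 stands at 2.89 in β-cells and 0.64 in α-cells, CALR at 0.56 and 0.35, and CHGB and SCG2 lie close together.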

How the data were processed

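Single islet cells were sequenced in 64 libraries with a modified STRT method. The authors trimmed and aligned the reads to Macaca_fascicularis_5.0, counted each UMI once per gene and deposited UMI counts of 21041 macaque genes and 95 spike-in RNAs per cell, without normalization (CASAVA 1.8 and TopHat2 2.0.12 per the submitters' processing notes). Genes are given by symbol, and no coordinates or sequences were used, since the reference given is another assembly. The members and the gene lists were chosen with earlier results of these data known.

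Cells were filtered, gated and split into groups as the report states, and no doublet caller was run. The counts were summed per animal and group, scaled by TMM, filtered with filterByExpr and fitted with edgeR 4.0.16 (R 4.3.3, quasi-likelihood test, animal as a block, Benjamini-Hochberg over all genes tested, threshold 0.05). The animal block pairs the groups because they are cells of 1 animal. Each SE was worked back from the edgeR test, as the absolute log2 fold change over the square root of its F statistic. The study itself tested cells, which were not taken as replicates here. DESeq2 1.42.0 and limma 3.58.1 were alternatives. An adjusted p that DESeq2 left out stayed missing. Single values were compared by exact permutation tests over animals (scipy 1.17.1 under Python 3.11.15). The scripts were tested on simulated data. The genes to be named were the called genes (adjusted p under 0.05) of at least 50 CPM with 1 direction in 10 or more animals, up to 10 each way by size of the change, which gave 4 (SDF2L1, MANF, PDIA4 and CALR), and any member of a gene list, which CRELD2 is. Lists were described by counts and medians only. Intervals and floors cover counting error only.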

Additional observations from a re-analysis of the deposited data

How the results depend on the processing

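In place of the 5 genes called between chaperone-high and chaperone-low cells, 21 were called by DESeq2, 14 without a filter on low counts (INS among them, lower), 2 with thinned counts, 0 with the cells ranked by HSP90B1 alone and 0 with INS at 5 times the second hormone. Without the animal as a block, so that the samples were not paired, 0 genes were called. Of the alternatives chosen after the data were seen, the ranking at equal depth called 3, animals with 50 or more β-cells 15, and limma voom with sample weights 67 (45 higher and 22 lower). Leaving out 1 animal in turn gave between 4 and 21 calls, and at most 5 without any animal other than young male 3. In 8 of 30 settings all 5 genes stayed called.

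The interaction with age gave 1 gene without the filter. That with cell type gave 5 by DESeq2 and 8 without the filter. The log2 depth ratio was 0.30 with the groups made within libraries, 0.095 without hormones in the totals, 0.134 for a split at the median, 0.143 without the deepest cells and between 0.15 and 0.27 with 1 animal left out. The difference in genes per cell was 49.5 without the deepest cells, 24.2 for a split at the median, 37.3 without hormones in the totals and 58.4 under the stricter INS gate, and between 52.4 and 77.9 with 1 animal left out. HSP90B1 in cells ranked by HSPA5 gave 0.34 within libraries and 0.78 under the stricter gate (4 animals, where the exact test cannot pass 0.05). HSPA5 in cells ranked by HSP90B1 gave 0.52 with thinned counts, 0.44 for a split at the median and between 0.45 and 0.74 with 1 animal left out. The HSPA5 difference by age was 0.28 under the stricter gate and between 0.36 and 0.75 with 1 animal left out, and that of HSP90B1 0.19 and between 0.52 and 0.90.

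Signs turned for DNAJB9 (-0.87), ERO1B (-0.11), PCSK1 (-0.20), ATF6 (0.22) and DDIT3 (1.05) under the stricter gate, for ERO1B (-0.064), ATF6 (0.19), ERN1 (0.021), DDIT3 (0.53) and ISL1 (0.043) with the cells ranked by HSPA5, for ERO1B (-0.041) with thinned counts, for DDIT3 (0.0497) with cells weighted equally, and for INS with the depth covariate (0.044) and at equal depth (0.083). ATF6 also turned with 50 or more β-cells (0.062), the depth covariate (0.15), voom (0.072), no block (0.0079) and HSP90B1 alone (0.33), and lay between -0.41 and 0.031 with 1 animal left out (positive without old female 3). The causes were not tested. Depth limits the low genes: 12386 of 21041 genes were not tested. They were too low, except for HSPA5 and HSP90B1, which were left out because they ranked the cells.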

Other observations

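In the 3 animals with fewer than 20 β-cells, the same ranking gave 2 or 5 cells in each group, and the values stand without a test. Young female 2 (8 β-cells) had 8 UMIs of MANF in chaperone-low and 41 in chaperone-high cells (98.3 and 364 CPM), 0 and 5 of PDIA4, 3 and 36 of CALR, 1 and 0 of SDF2L1 (12.3 and 0 CPM) and none of CRELD2. Young female 3 (16 β-cells) had 2 and 58 UMIs of MANF (7.46 and 132 CPM), 0 and 2 of CRELD2, 31 in both of SDF2L1 (115.6 and 70.5 CPM), 19 in both of PDIA4 (70.9 and 43.2 CPM) and 63 and 99 of CALR (235 and 225 CPM), so that these 3 genes were lower in CPM in its chaperone-high cells. Old male 4 (17 β-cells) had 5 and 161 UMIs of SDF2L1 (20.1 and 463 CPM), 4 and 75 of MANF (16.1 and 216 CPM), 0 and 12 of CRELD2, 32 and 81 of PDIA4 and 74 and 113 of CALR. MANF was thus higher in CPM in chaperone-high cells in all 3 of these animals, while SDF2L1 was lower in both young females. None of the 3 entered a fit.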
